A study of Drosophila melanogaster with 2 samples.

Results

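The 9 genes examined here belong to the autophagy machinery and were followed through a ChIP-seq series from Drosophila melanogaster: Atg1, Atg13, Atg9, Atg2, Atg18a, Atg5, Atg7, Atg8a and Atg8b. They were chosen by symbol from the Ensembl annotation and are 9 of the 13945 protein-coding genes on the chromosome arms. Chromatin immunoprecipitation followed by sequencing (ChIP-seq) recovers DNA that lies close to a protein of interest. Here the flies stably carried espinas (esn) fused at its C-terminus to green fluorescent protein (GFP), and the antibody was directed against GFP. Espinas is a paralogue of Prickle, a cytoplasmic planar cell polarity protein with LIM domains. Whole animals of mixed sex were used at the white prepupa stage, when the larval cuticle hardens into the puparium, so the lists mix all tissues of the animal. The age is given as unknown, and the labels used here do not name the regulatory DNA that drives the transgene. The chromatin was sheared by sonication. The esn-GFP line was the only group, with 2 biological replicates. There was no untagged group, and control libraries were not analysed here, so recovery through espinas and recovery unrelated to it cannot be told apart. No comparison between groups, and no test, was possible.

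Autophagy encloses cytoplasm in a double membrane and delivers it to the lysosome. The Atg1 kinase with Atg13 starts the process, Atg9 and Atg2 supply and move lipid for the growing membrane, and Atg18a reads the lipid mark made by the Vps34 lipid kinase. Atg7 and Atg5 act in the conjugation reactions that attach Atg8-type proteins to the membrane. In flies, pulses of the steroid hormone ecdysone at the onset of metamorphosis drive autophagy in the larval fat body, midgut and salivary glands, tissues that are present in the animals used here.

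The following genomic sequences lie within 100 bases of summits, a summit being the authors' position of highest signal in a deposited region. They are printed 5′ to 3′ on the strand of the autophagy gene, from Release 6 of the genome, which has dm6 coordinates. They show the DNA at the strongest summits of Atg5, Atg2 and Atg1, the promoter summits of Atg13 and Atg8a, and the summit upstream of Atg18a. Capitals mark matches to the motifs searched for below, and untranslated stretches were trimmed. Atg5 upstream is chrX:7324913-7325113 (minus strand) with GAGAG matches read from the other strand, and Atg5 intron is chrX:7319142-7319342 (minus strand) with a TATAAA match. Atg2 is chr3L:2774008-2774198 (plus strand), and no motif was matched in it. Atg1 is chr3L:12793083-12793283 (minus strand) and Atg18a is chr3L:8185786-8185986 (plus strand), each with a match to AGGTCA on the other strand. Atg13 is chr3R:8349564-8349764 (plus strand) with overlapping TATAAA matches on both strands, and Atg8a is chrX:10767334-10767534 (minus strand) with a GAGAG match. The A+T-rich tracts are visible by eye in the Atg1 sequence, whose G+C content was 24.9%, against 40.3% in that of Atg8a.
Atg5 upstream: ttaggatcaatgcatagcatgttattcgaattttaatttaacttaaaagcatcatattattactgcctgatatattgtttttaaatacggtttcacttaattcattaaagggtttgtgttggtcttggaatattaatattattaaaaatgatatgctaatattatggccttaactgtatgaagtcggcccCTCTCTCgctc
Atg5 intron: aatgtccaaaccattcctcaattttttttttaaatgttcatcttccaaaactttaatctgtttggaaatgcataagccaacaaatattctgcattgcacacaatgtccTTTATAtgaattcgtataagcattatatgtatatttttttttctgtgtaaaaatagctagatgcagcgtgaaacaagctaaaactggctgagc
Atg2: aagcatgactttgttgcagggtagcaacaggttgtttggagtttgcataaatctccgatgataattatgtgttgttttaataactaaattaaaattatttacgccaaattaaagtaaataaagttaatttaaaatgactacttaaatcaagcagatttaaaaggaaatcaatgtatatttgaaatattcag
Atg1: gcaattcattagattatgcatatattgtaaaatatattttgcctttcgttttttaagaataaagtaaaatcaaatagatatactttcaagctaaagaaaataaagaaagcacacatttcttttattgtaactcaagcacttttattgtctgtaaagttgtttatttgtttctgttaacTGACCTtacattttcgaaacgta
Atg18a: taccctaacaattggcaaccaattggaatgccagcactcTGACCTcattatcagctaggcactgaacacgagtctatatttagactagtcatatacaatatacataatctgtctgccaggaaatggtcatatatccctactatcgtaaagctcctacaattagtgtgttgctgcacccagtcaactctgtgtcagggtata
Atg13: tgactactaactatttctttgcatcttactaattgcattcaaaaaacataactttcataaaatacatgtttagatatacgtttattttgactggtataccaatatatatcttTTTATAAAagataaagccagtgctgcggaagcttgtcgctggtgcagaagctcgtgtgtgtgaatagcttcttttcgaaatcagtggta
Atg8a: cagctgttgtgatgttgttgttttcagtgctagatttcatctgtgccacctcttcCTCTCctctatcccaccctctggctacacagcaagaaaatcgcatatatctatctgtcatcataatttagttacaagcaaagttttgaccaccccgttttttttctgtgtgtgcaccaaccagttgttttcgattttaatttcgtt

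Of the 9 genes, 8 had a summit in the gene window, defined as the gene body plus 2 kb upstream, in the list kept after an irreproducible discovery rate threshold (the IDR list). Atg8b was the gene without one. Over all protein-coding genes 45.4% had such a summit. The 19 IDR summits in these windows came from 15 runs of overlapping regions, so several places are represented by more than 1 deposited region. The authors gave each region a signal value with no stated unit. Values from the replicate lists are not comparable with each other or with the IDR list. The signal value serves here to order regions inside 1 list. Among the 10936 regions of the IDR list it ranged from 164 to 8950. These were all among the 10936 strongest regions of the list of both replicates pooled (the pooled list). Member summits of the IDR list had the same signal in the pooled list, so these lists are not separate evidence. The 19 summits had a median signal of 390 (range 169 to 2120), and all IDR regions on the arms had a median of 328. A promoter summit, within 500 bases of a protein-coding transcript start, was present at 7 of the 9 genes and at 35.4% of all genes. Depth is unknown, because the files hold no read counts.

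**Figure D1:**
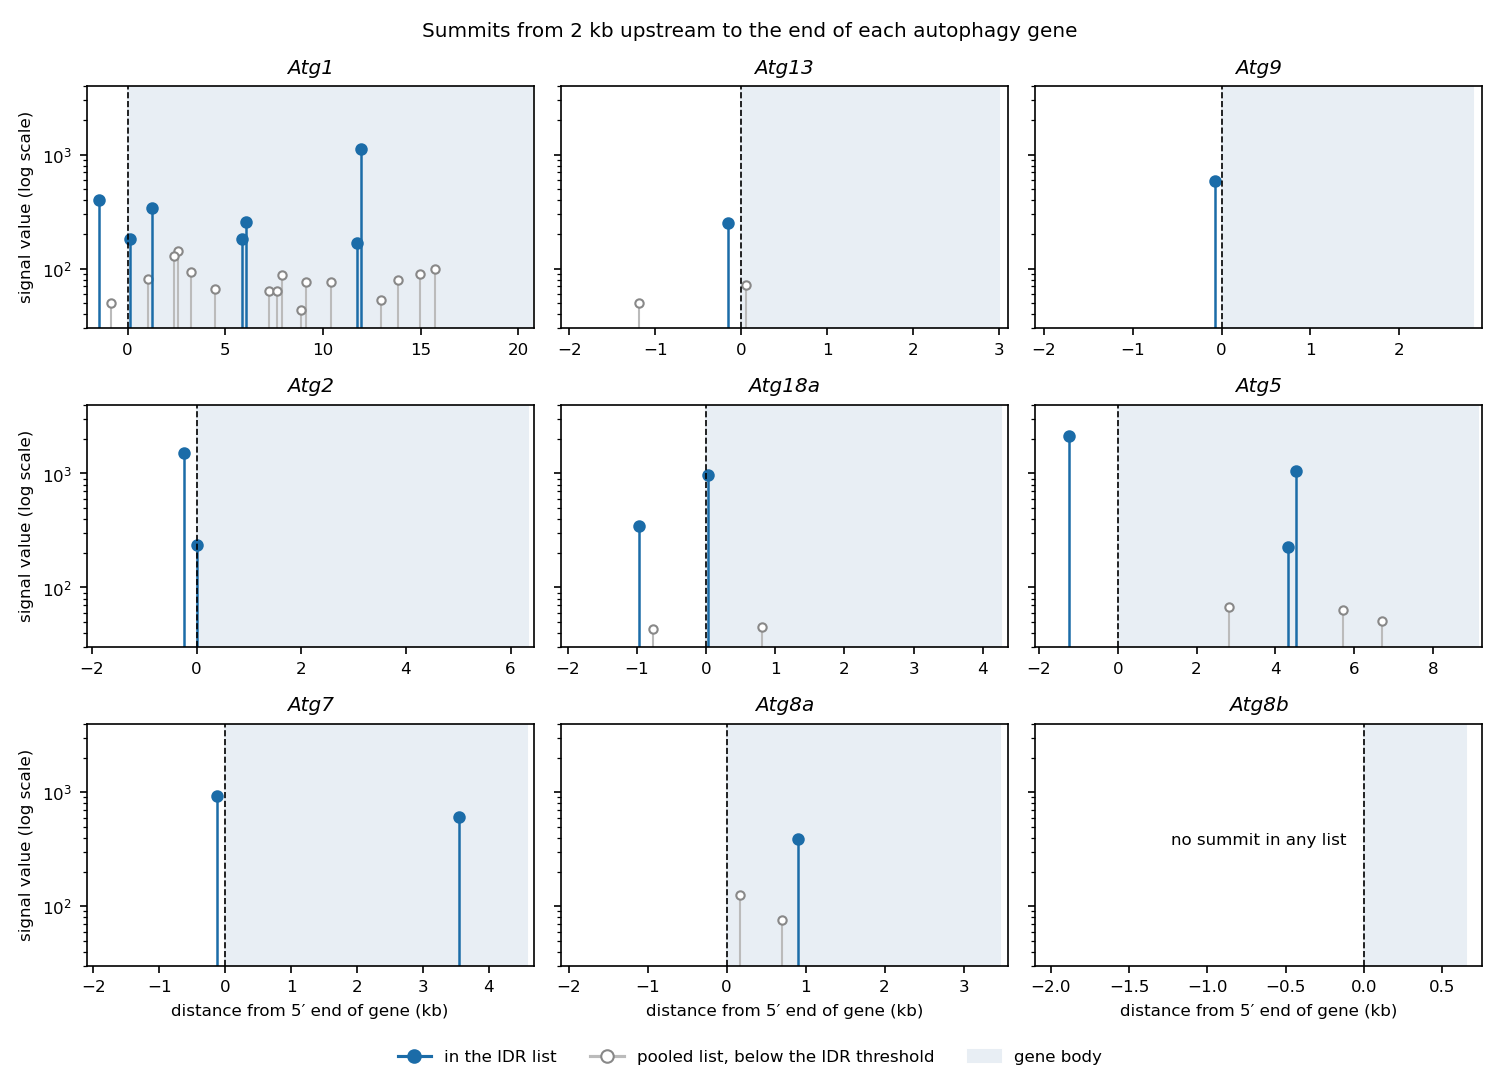
Signal value (log scale) of each summit against its distance in kb from the 5′ end of the gene, 1 panel a gene, each with its own horizontal scale. Filled points are in the IDR list, open points are in the list of both replicates pooled but below the IDR threshold, and shading marks the gene body; Atg1 has 7 filled points, Atg5 the highest one at 2120, and Atg8b none.

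Atg1 encodes the serine/threonine kinase that starts autophagy, and had the most IDR summits of the 9 genes. The gene spans 20688 bases on the minus strand (FBgn0260945, 3L, 12784429 to 12805116). Its window held 7 IDR summits in 5 runs. In the pooled list it held 23 summits, and in the lists of replicates 1 and 2 it held 25 and 23. Per kb of window this was 0.309 IDR summits, which lay within the range of the 8 genes with a summit, from 0.183 at Atg8a to 0.319 at Atg18a, against 0.0816 per kb of chromosome arm. In the pooled list Atg1 had 1.01 summits per kb, against 0.224 per kb of arm. The other 7 of these genes had 0.207 to 0.639. Atg8b had 0 in both lists. The 8 genes were taken here because they had a summit, which by itself raises their values. The arm is therefore no like baseline.

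The strongest Atg1 summit lay deep in the gene, 11933 bases downstream of the start at position 12793183, in intron 2 and also in an intron of the overlapping gene CG42709. Its signal was 671 in replicate 1 and 441 in replicate 2, at ranks 1085 and 904, and 1114 in the IDR list. A second summit at 12806594, 1478 bases upstream, lay inside Sap130, a gene for a subunit of the Sin3 histone deacetylase complex, 408 bases from a Sap130 start. Its rank differed more, 7412 in replicate 1 and 2181 in replicate 2, for an IDR signal of 399. The summit at 12803855 in intron 1 had an IDR signal of 341 and ranks of 5399 and 5475 in replicates 1 and 2. A pair of summits 6050 and 5848 bases into the gene, at 12799066 and 12799268, had IDR signals of 255 and 182. The remaining summits had signals of 181 and 169. The one at 181 was the promoter summit of Atg1, in the 5′ untranslated region 127 bases from the start, at ranks 9448 in replicate 1 and 12056 in replicate 2. Among the 7 IDR summits of Atg1 the promoter summit was thus number 6 by signal, and the strongest was intronic.

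Atg13, the partner that binds and activates the Atg1 kinase, had a single and weaker IDR summit. The gene (FBgn0261108, 3R, 8349815 to 8352817, plus strand) carried it at 8349664, between genes and 151 bases upstream of the start. Signal was 195 in replicate 1, at rank 5838, but 61.5 in replicate 2, at rank 11675, and 249 in the IDR list. The replicates thus placed this summit far apart in rank, and it is the lowest strongest summit of the 8 genes with one. Atg13 was also the only one of the 9 without a head-to-head neighbour within 1000 bases.

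Among the genes for membrane supply, Atg2, the lipid transfer protein that feeds the growing membrane, had the strongest promoter summit of the set. The gene (FBgn0044452, 3L, 2774338 to 2780677, plus strand) carried it at 2774098, 240 bases upstream of its start and 91 bases from the start of the divergent gene CG12093. Signal was 952 in replicate 1 and 560 in replicate 2, at the near-equal ranks 567 and 568, and 1514 in the IDR list. A weaker summit in an overlapping region, at 2774343 in the 5′ untranslated region 5 bases past the start, had an IDR signal of 234. Its replicate ranks were 9826 and 4219 in replicates 1 and 2.

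Atg18a, a protein that binds phosphatidylinositol 3-phosphate, had a promoter summit at 8186889, 32 bases inside the gene in the 5′ untranslated region (FBgn0035850, 3L, 8186857 to 8191118, plus strand). Signal was 663 in replicate 1, at rank 1103, and 285 in replicate 2, at rank 1877, and 963 in the IDR list. The start of ERR, which encodes the estrogen-related receptor, a nuclear receptor that controls larval carbohydrate metabolism, lay 218 bases from this summit. The other Atg18a summit, at 8185886, lay 971 bases upstream in intron 1 of ERR and 216 bases from an ERR start. It ranked 4327 in replicate 1 and 7276 in replicate 2, with an IDR signal of 349.

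Atg9, the transmembrane protein whose vesicles seed the new membrane, had 1 summit, and the same place was the only one in its window in all 4 lists. The gene (FBgn0034110, 2R, 16294400 to 16297232, plus strand) carried it at 16294322, between genes, 78 bases upstream of Atg9 and 192 bases from the divergent CG7747. Signal was 381 in replicate 1 and 193 in replicate 2, at ranks 2553 and 3204, and 585 in the IDR list.

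Atg5, which is joined to Atg12 to form part of the enzyme that lipidates Atg8, had the strongest summit of the 9 genes but no IDR promoter summit. The gene (FBgn0029943, X, 7314622 to 7323770, minus strand) lies inside intron 2 of CG1677. Its strongest summit, at 7325013, was 1243 bases upstream, in intron 1 of the divergent gene Dok, an adaptor protein of receptor tyrosine kinase signalling. Signal was 1300 in replicate 1 and 802 in replicate 2, at ranks 278 and 256, and 2120 in the IDR list. Another summit, at 7319242 in Atg5 intron 5, had signals of 667 and 390 in replicates 1 and 2 at ranks 1099 and 1144, and 1058 in the IDR list. Its overlapping companion at 7319441 was weaker at 225. Near the Atg5 start itself, 1 summit was found, in replicate 2 alone, 307 bases upstream at rank 15458 with a signal of 44.2, and it lay closer to the start of Dok, at 137 bases.

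Atg7, the E1-type enzyme that activates both Atg8 and Atg12, had 2 IDR summits (FBgn0034366, 2R, 18620466 to 18625044, minus strand). The promoter summit at 18625163 lay 119 bases upstream of Atg7 and 86 bases from the divergent start of Sec6, a subunit of the exocyst. Signal was 573 in replicate 1 and 359 in replicate 2, at ranks 1398 and 1299, and 922 in the IDR list. The summit at 18621502 lay within an Atg7 intron, but also 39 bases from the start of CG5335, a gene nested in Atg7 on the opposite strand. Its signal was 405 in replicate 1 and 209 in replicate 2, and 603 in the IDR list. Both places held a summit in all 4 lists, and no other summit was found in the window.

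Atg8a and Atg8b encode the ubiquitin-like proteins that are attached to lipid on the autophagosome membrane. Of the pair, Atg8a had an IDR summit and Atg8b had none. Atg8a (FBgn0052672, X, 10764878 to 10768338, minus strand) has 3 annotated transcript starts. Its IDR summit at 10767434 lay in intron 1 of the longest transcript, 904 bases from the 5′ end of the gene and 128 bases upstream of the middle start. Signal was 244 in replicate 1 and 146 in replicate 2, at the close ranks 4589 and 4600, and 390 in the IDR list. At the outermost start, which faces BTBD9 at 199 bases, the pooled list held a weaker summit with a signal of 125 at rank 13753, below the IDR threshold. The replicate lists held summits 76 bases from that start at rank 14867 in replicate 1 and 179 bases from it at rank 11662 in replicate 2.

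Atg8b (FBgn0038539, 3R, 17724410 to 17725063, minus strand), a compact gene of 654 bases known for expression in the male germ line, had no summit in any of the 4 lists. None of the lists held a summit within 5000 bases of the gene. The nearest IDR summit was 6990 bases away in intron 1 of osa, with a signal of 215, and the nearest in the replicate lists were 5829 and 5341 bases away. Of all genes spanning under 2 kb, 31.2% had an IDR summit in the window, so lacking one was the more frequent state among short genes.

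The number of genes with a summit has to be read against gene size and against the lists used. The 9 genes had a median span of 4262 bases, and all protein-coding genes one of 2166 bases. In the class from 2 to 5 kb, 5 of 5 members had an IDR summit, against 50.6% of all genes. Between 5 and 10 kb it was 2 of 2, against 64.4%, and over 10 kb it was Atg1 alone, 1 of 1, against 67.5%. The pooled list gave 8 of the 9 genes, against 61.2% of all genes. Replicate 1 gave 8, against 62.1%, and replicate 2 gave 8, against 60.9%. These 3 lists held 30000 regions each, include background regions per the deposited file descriptions, and so mark many genes. Promoter summits were found at 7 members in the pooled list, against 52.0% of all genes, at 7 in replicate 1, against 52.5%, and at 8 in replicate 2, against 52.0%, where Atg5 was added. In the gene body alone, 6 of the 9 genes had an IDR summit, against 19.7% of all genes, with Atg9 and Atg13 left out since their only summit was upstream.

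Ordered by the strongest IDR summit in the window, Atg5 was number 341 of the 6333 genes with one, Atg2 number 671, Atg1 number 1100, Atg18a number 1334 and Atg7 number 1392. Further down, Atg9 was number 2451, Atg8a number 3561 and Atg13 number 4995. The median of the strongest signal was 943 over the 8 members and 444 over the 6333 genes. The 8 members held a median of 2 IDR summits in the window, and the 6333 genes a median of 1. Holding more summits by itself raises the strongest, so these medians do not compare like windows. In 7 of the 9 genes the strongest summit reached the median signal of the IDR list, against 29.3% of all genes. Windows overlap between neighbouring genes, so the same summit can be counted for more than 1 gene.

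**Figure D2:**
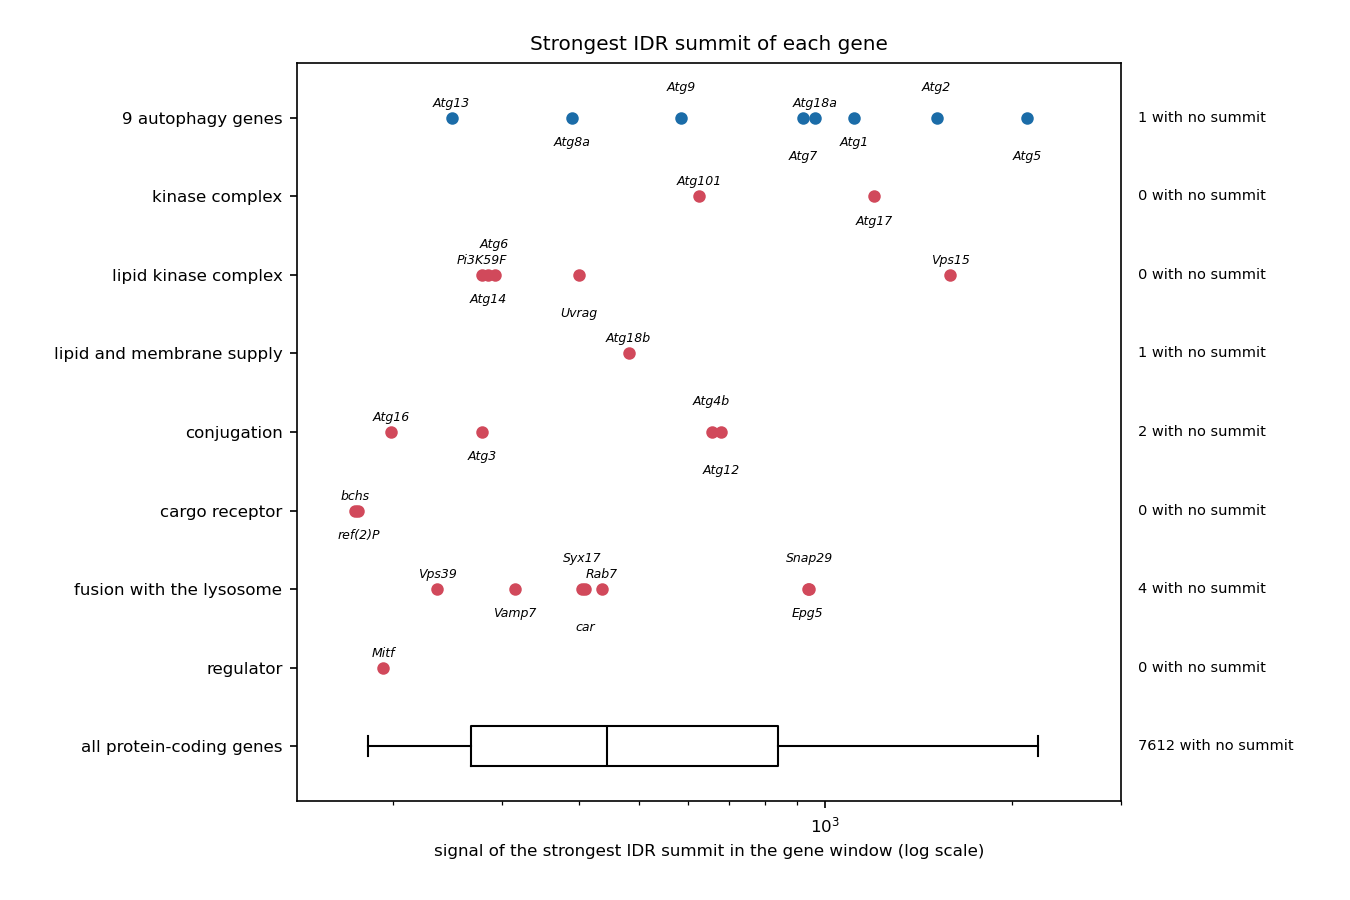
Signal of the strongest IDR summit in the window of each gene (log scale), with the 9 autophagy genes in the top row, other genes of the pathway by role below, and all protein-coding genes as a box at the bottom. Points are genes; the box spans the quartiles with the median of 444 as a line, whiskers reach the 5th and 95th percentiles, and counts at the right are genes with no IDR summit. Atg5, Atg2, Atg1, Atg18a and Atg7 lie at 922 or higher.

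Most of the 9 genes share their upstream DNA with a divergently transcribed neighbour. A head-to-head neighbour, with its 5′ end upstream on the opposite strand, lay within 500 bases of 6 of the 9 genes, against 25.0% of all genes, and within 1000 bases of 8, against 33.3%. The median distance between such ends was 331 bases for the 9 genes and 3452 bases for all. With a neighbour within 500 bases, 5 of 6 members had a promoter summit, against 63.1% of all genes. Without one, 2 of 3 did, against 26.2%. Any start of a gene counted here. At Atg8a the summit lay at an internal start, 904 bases from the 5′ end that faces BTBD9. Of the 8 promoter summits, 5 lay within 500 bases of the start of another protein-coding gene as well, namely those at Atg9, Atg7 and Atg18a and both at Atg2. These summits cannot be assigned to 1 gene of a pair.

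**Figure D3:**
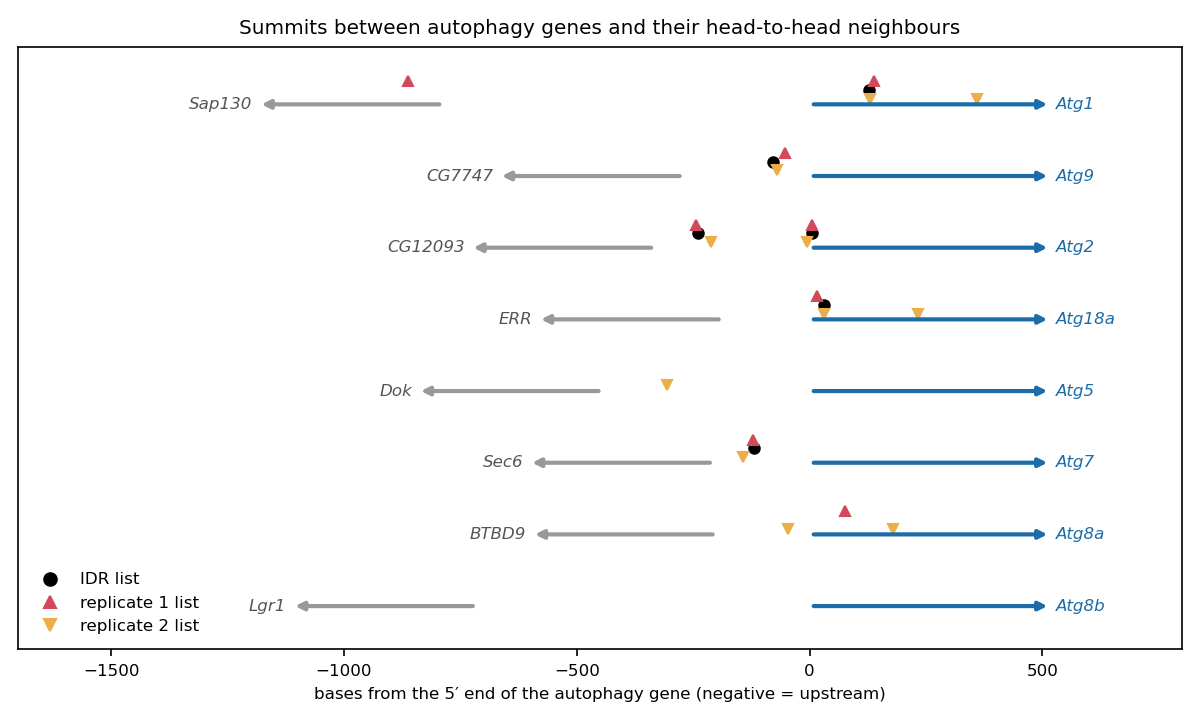
Position in bases of summits around the 5′ ends of the 8 autophagy genes with a head-to-head neighbour within 1000 bases, with the autophagy gene transcribed to the right from 0 and its neighbour to the left. Circles are IDR summits, upward triangles replicate 1 and downward triangles replicate 2; summits of the lists lie close together at Atg9, Atg2, Atg18a and Atg7, only replicate 2 has one at Atg5, and Atg8b has none. Summits outside the stretch drawn, such as those in introns, are left out.

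Counting every protein-coding start, 11 of the 19 summits lay within 500 bases of one, against 41.9% of all IDR summits on the arms. Each member window holds a start of its gene, so a higher share than over all summits is partly built in. Of these 11, 5 lay near the starts of more than 1 gene, against 34.4%. Besides the 8 promoter summits, 3 lay at the start of another gene: Sap130 at Atg1, ERR at Atg18a and CG5335 inside Atg7. The other 8 summits, 5 in Atg1 and 3 in the window of Atg5, were at no protein-coding start. By annotation 4 of the 19 summits were intergenic, 3 lay in untranslated exons, 12 in introns only and 0 in coding exons. Shares of these classes over all IDR summits are not given here, so the counts cannot be read as particular to these genes.

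All 19 summits had an overlapping region in both replicate lists. The nearest such region was among the strongest 10918 of both lists, the number of IDR regions on the arms, for 14 of the 19, against 79.4% of all IDR summits. Because the IDR list was made from both replicates, these values describe it and are no separate check. The summit nearest in replicate 1 lay a median of 17.0 bases away, against 12.0 over all IDR summits, and in replicate 2 it was 10 bases, against 13.0. The largest shift was 67 bases in replicate 1 and 153 bases in replicate 2. Ranks were closest at the strong summits of Atg5 and Atg2 and at Atg8a. The largest difference in rank was at a weak summit in Atg1, at 12799268, which was number 27078 in replicate 1 and 12868 in replicate 2. Of the 19 summits, 11 ranked higher in replicate 1, and among all IDR summits this held for 59.4%. Nothing in the labels says how the animals of the replicates were raised or collected, so their spread may be partly technical.

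**Figure D4:**
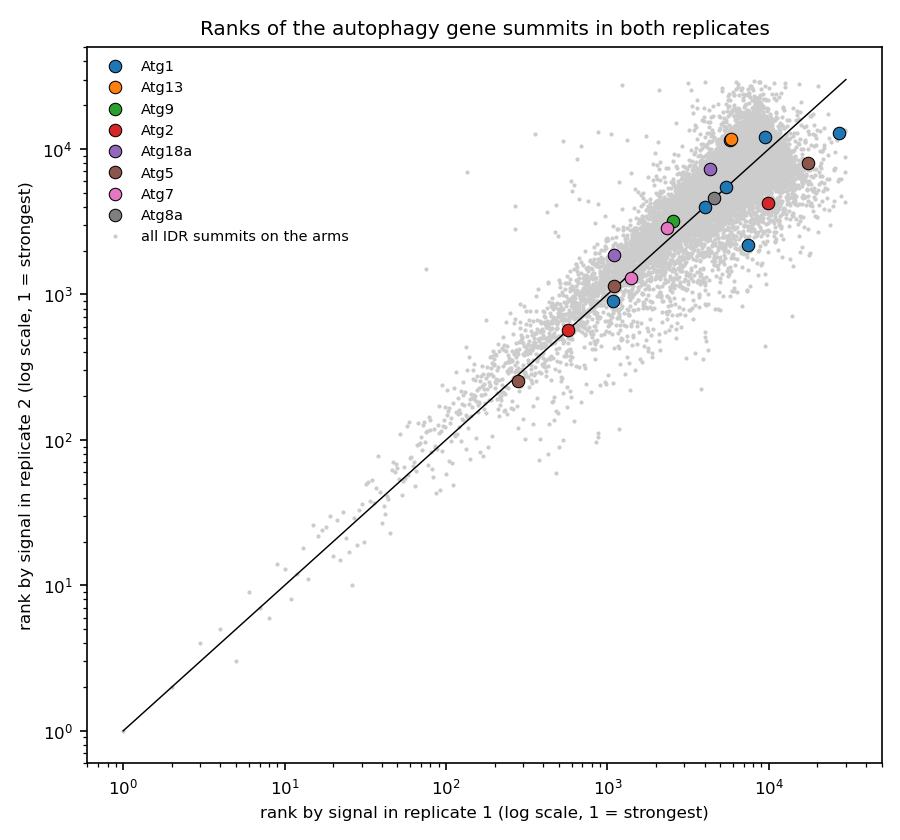
Rank by signal in replicate 2 against rank in replicate 1 (both log scales, 1 is the strongest) of the 19 IDR summits of the autophagy genes, coloured by gene, over all IDR summits on the arms in grey. The line marks equal ranks; the strongest Atg5 and Atg2 summits lie on it, and Atg13 and several Atg1 summits lie away from it.

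Short motifs were sought in the 201 bases centred on each summit, on both strands, and the share of all IDR windows with the motif is given beside each count. None of the 19 windows held TATCGATA (the DRE, bound by the promoter factor Dref), against 3.80%, GGTCACAC (Motif 1 of housekeeping promoters), against 2.58%, or GTAAACA, a core bound by foxo, against 5.72%. CACGTG, an E-box of the kind bound by Mitf, the fly homologue of TFEB that controls autophagy and lysosome genes, was in 0 of 19 windows, against 1.98%. With shares this low, 0 of 19 windows says little about absence. GAGAG, bound by the GAGA factor, was in 5 windows, against 22.2%: those of Atg9, Atg8a, the Atg18a and Atg1 promoters and the upstream summit of Atg5. TATAAA was in 4, against 35.6%, namely those of Atg9, Atg13, the Atg7 intron and the Atg5 intron. In the Atg13 sequence above it lay 136 bases upstream of the annotated start. AGGTCA, a hexamer that many nuclear receptors bind, was in 2 windows, against 3.62%: the one upstream of Atg18a inside ERR and the strongest of Atg1. AGGTCA and GGTCACAC share the letters GGTCA and can overlap. In all, 10 of the 19 windows held 1 or more of the 7 motifs, against 6550 of all 10918. The median G+C content was 36.3% in the 19 windows (range 24.9 to 45.8) and 34.8% in all. These matches describe letters only.

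The rest of the pathway was described with 29 further genes, of which 28 matched by symbol and 1, Vmp1, through its synonym to Tango5. Of these 29 genes, 22 had an IDR summit in the window and 20 had a promoter summit, beside the shares of 45.4% and 35.4% over all genes. Their strongest summits had a median signal of 402 (range 174 to 1592), against the median of 444 over all genes with a summit. A head-to-head neighbour within 500 bases was present at 13 of the 29, against 25.0% of all genes. Over all genes, promoter summits were present at 63.1% with such a neighbour and at 26.2% without one. The counts of the 29 are not split by this here.

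In the kinase complex, both genes had a summit: Atg17, a scaffold, at 1199 and Atg101, which stabilises Atg13, at 625. A start of Xe7 also lay within 500 bases of the Atg17 summit. The Atg101 summit lay 1722 bases upstream in S6KL, within 500 bases of an S6KL start, and was not a promoter summit of Atg101. All 5 genes of the Vps34 lipid kinase complex had a promoter summit. The strongest in the window were those of Vps15, the regulatory kinase subunit, at 1592 and of Uvrag at 400. The Uvrag summit was also within 500 bases of a Drep4 start. The Vps15 summit of 1592 was not its promoter summit: it lay upstream of the gene, in intron 1 of the divergent gene CG8420 and within 500 bases of a CG8420 start. For lipid and membrane supply, Atg18b, a relative of Atg18a, had 1 IDR summit, with a signal of 481, 5452 bases from its nearest start. This summit lay in intron 1 of Atg18b and also in an exon of snRNA:U4:39B, a small nuclear RNA gene. It cannot be assigned to 1 of these genes. Tango5 had no IDR summit, though both replicate lists held promoter summits there. In conjugation, 4 of 6 had a promoter summit, led by Atg12, the ubiquitin-like partner of Atg5, at 679 and the Atg8 protease Atg4b at 655. Starts of other genes also lay within 500 bases of these summits, CG5645 at Atg12 and Hibch at Atg4b. Atg4a, the other protease, and Atg10, the enzyme that transfers Atg12, had no IDR summit.

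The cargo receptor ref(2)P, the fly p62, and the adaptor bchs had weak promoter summits, with strongest signals in the window of 176 and 174. The ref(2)P summit of 176 was not its promoter summit: it lay in intron 1, 841 bases from the nearest start. In the group for fusion with the lysosome, 7 of 11 had a promoter summit. The SNARE protein Snap29 at 942 and the tether Epg5 at 936 were the strongest. The Snap29 summit was also within 500 bases of a CG5554 start. Summits shared in this way, here and in the other roles, cannot be assigned to 1 gene. The 4 without an IDR summit were Vps16A, dor, Vps11 and lt, which encode subunits of tethering complexes of the lysosome, as do car and Vps39, which had one. Of these 4, dor had promoter summits in both replicate lists, and lt (2L, 22924795 to 22943135) lies beyond the last IDR region of its arm, which ends at 22168719. Mitf had a weak promoter summit of 193.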

How the data were processed

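ChIP-seq with an anti-GFP antibody was available as peak lists of 2 biological replicates of esn-GFP white prepupae, and the replicate numbers come from the labels. The deposited file descriptions say that narrowPeak lists came from each replicate and from both pooled, each with a control, and that the authors derived the IDR list from these. Which caller and threshold were used is not given in the sources used here. Each region carries the authors' signal, deposited with no stated scale. The dm6 lists were used and the dm3 lists were not. Summits are region start plus the deposited offset, 1-based. The gene models were those of Ensembl release 115 on BDGP6.54, and sequence was read from Release 6. A replicate region was matched to an IDR region by an overlap of 1 base or more, taking the nearest summit. Counting was tested on simulated data. Python 3.11.15, numpy 2.4.6, pandas 2.3.3 and matplotlib 3.10.9 were used.

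The members, the pathway list, the motifs and the alternatives were chosen with earlier results of these data known. Named are the 9 genes with every summit up to 5 by signal, genes with a start within 500 bases of a printed summit, and, of the other pathway genes, the 2 strongest per role and those with none. Others, including Atg1's promoter summit, car, Vps39, CG42709, CG1677, BTBD9 and osa, were named after their values were seen. Nothing was tested, since the series has 1 group. Alternatives changed the list, the window, the promoter distance and the motif window. Depth is unknown.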

Additional observations from a re-analysis of the deposited data

How the results depend on the processing

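The number of the 9 genes with a summit in the window stayed between 6 and 8 under the alternatives to the list and the window, and the number with a promoter summit between 5 and 7. The whole list of replicate 2, with its 30000 regions, held promoter summits at 8, Atg5 among them. In the strongest 5459 regions of the IDR list, Atg13 had no summit, and Atg1 and Atg13 had no promoter summit. With the strongest regions of replicate 2 in place of the IDR list, that is without replicate 1, Atg13 was lost from both counts, and without replicate 2 no gene was. Counting the 5′ end of the gene alone removed the promoter summit of Atg8a, and the gene body alone removed Atg9 and Atg13. The 19 summits became 12 in the strongest part of the list, 44 in the pooled list and 12 in the gene body alone. Leaving out replicate 1 or replicate 2 gave 17 in both cases. Of the 29 other genes, 22 had a window summit, but 12 in the strongest part and 5 in the gene body alone, where 19.7% of all genes had one. Their promoter summits numbered 20, but 10 in the strongest part. Shares over all genes are not given here for the strongest part, a replicate left out, or other upstream and promoter distances. Whether the changes under those settings are particular to autophagy genes can therefore not be told. The 10 windows with a motif became 4 with 50 bases on each side of the summit and 17 with the whole region, where all IDR windows held 36.5% and 78.2%. No paired analysis was possible because the series has 1 group and no test was run. Without an untagged group, and with depth unknown, neither background recovery nor counting error can be given for any summit.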
